A study of Mus musculus with 6 samples.

Results

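A small set of cells in cultures of mouse muscle-derived stem/progenitor cells carried the transcripts of an antiviral response. They were picked by 6 interferon-stimulated genes, Ifit1, Ifit3, Isg15, Rsad2, Usp18 and Oasl2: a cell was called interferon-responding when at least 3 of the 6 had a UMI (unique molecular identifier, a tag that counts 1 captured transcript once). Among 60325 cells with 5000 or more UMIs and under 15% of UMIs from mitochondrial genes, 116 met this rule (0.192%). The comparison cells were the 57491 cells of the same samples in which none of the 6 genes was found (95.3%). The remaining cells had a UMI of 1 gene (2555 cells) or of 2 genes (163 cells).

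Muscle-derived stem/progenitor cells are the slowly adhering fraction that is left when dissociated skeletal muscle is moved repeatedly to fresh collagen-coated flasks. The 6 samples are cultured populations, 3 labelled young and 3 labelled old, all kept in proliferation medium with fetal bovine and horse serum and harvested without a treatment named in the labels. Age in months, sex, strain and the number of mice behind each population are not given in the labels. The median depth of kept cells was 13181 to 20111 UMIs. Each sample is 1 droplet library read from the 3′ ends of transcripts, and the labels call the populations of a group biological replicates.

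Interferons are secreted proteins that warn cells of infection. Foreign or misplaced RNA or DNA is recognised by sensors inside the cell, and the factors IRF3 and IRF7 then switch on interferon genes together with chemokines such as Cxcl10 and Ccl5. Secreted type I interferon binds a receptor made of Ifnar1 and Ifnar2, and the kinases Jak1 and Tyk2 then activate transcription factors, Stat2 and Irf9 among them. These recognise the interferon-stimulated response element, a tandem GAAA motif, in the promoters of antiviral genes. Among the products, Ifit1 and Ifit3 bind foreign RNA, Isg15 is a ubiquitin-like tag, Usp18 removes that tag and dampens the receptor, Rsad2 (viperin) makes a chain-terminating nucleotide, and Oasl2 belongs to the oligoadenylate synthetase family.

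The promoters of 4 of these genes and of Cxcl10 are shown because they hold the letters that these factors are known to read. Sequences are from RefSeq, build GRCm38.p6, 150 bases each, written 5′ to 3′ on the gene's own strand, with every match to GAAANNGAAA in either orientation in capitals (read on the opposite strand it is TTTCNNTTTC).
Ifit1: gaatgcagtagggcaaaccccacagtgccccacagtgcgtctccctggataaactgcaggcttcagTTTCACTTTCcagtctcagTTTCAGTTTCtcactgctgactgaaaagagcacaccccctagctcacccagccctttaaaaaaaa
Ifit3: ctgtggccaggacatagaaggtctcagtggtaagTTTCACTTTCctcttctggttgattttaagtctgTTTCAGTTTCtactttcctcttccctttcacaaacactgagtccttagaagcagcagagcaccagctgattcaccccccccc
Isg15: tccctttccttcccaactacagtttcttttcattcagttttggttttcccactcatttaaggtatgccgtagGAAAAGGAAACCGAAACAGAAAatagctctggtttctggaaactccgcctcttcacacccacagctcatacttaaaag
Rsad2: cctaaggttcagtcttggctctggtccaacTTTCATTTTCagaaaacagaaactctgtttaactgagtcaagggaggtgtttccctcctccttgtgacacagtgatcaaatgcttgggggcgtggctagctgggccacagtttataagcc
Cxcl10: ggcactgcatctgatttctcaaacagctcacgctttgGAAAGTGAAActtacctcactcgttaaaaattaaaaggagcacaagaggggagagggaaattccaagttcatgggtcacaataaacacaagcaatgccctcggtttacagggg
The Ifit1 window is chr19:34640719-34640868, plus strand, and starts 170 bases before the start site. The Ifit3 window is chr19:34583339-34583488, plus strand, and starts 190 bases before the start site. The Isg15 window is chr4:156200819-156200968, minus strand, and starts 150 bases before the start site. The Rsad2 window is chr12:26456453-26456602, minus strand, and starts 150 bases before the start site. The Cxcl10 window is chr5:92348990-92349139, minus strand, and starts 250 bases before the start site. Isg15 has 3 overlapping matches in 1 run, Ifit1 and Ifit3 have 2 each, and Rsad2 and Cxcl10 have 1 each. Over the whole RefSeq window of 300 bases (250 before to 50 after the start site), 3.99% of 27025 genes held a match.

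The responding cells were found in every sample, and their share varied widely between populations within each age group. Young replicate 1 had 20 among 8444 cells (0.237%), young replicate 2 had 16 among 10650 (0.150%) and young replicate 3 had 1 among 10633 (0.0094%). Old replicate 1 had 40 among 9906 (0.404%), old replicate 2 had 13 among 8513 (0.153%) and old replicate 3 had 26 among 12179 (0.213%). The lowest sample was young replicate 3 (95% Wilson interval 0.00166% to 0.0533%) and the highest was old replicate 1 (0.297% to 0.549%), and these intervals cover counting error only. The groups overlapped: young replicate 1 lay above old replicates 2 and 3.

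The mean share was 0.132% ± 0.115 (SD, n = 3) in young and 0.257% ± 0.131 (SD, n = 3) in old samples. The difference of 0.124 percentage points did not pass an exact two-sided permutation test over samples (p = 0.4, where 3 against 3 cannot go below 0.1). Replicate 1 of each group was deposited on a shorter gene list from an earlier Cell Ranger version. Within that list, old minus young was 0.167 points with 1 sample each, and within the longer list it was 0.103 points (exact permutation p = 0.333, the smallest that 2 against 2 can give), with both old samples above both young ones. The difference was 0.0509 points without old replicate 1 and 0.0631 points without young replicate 3.

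**Figure D1:**
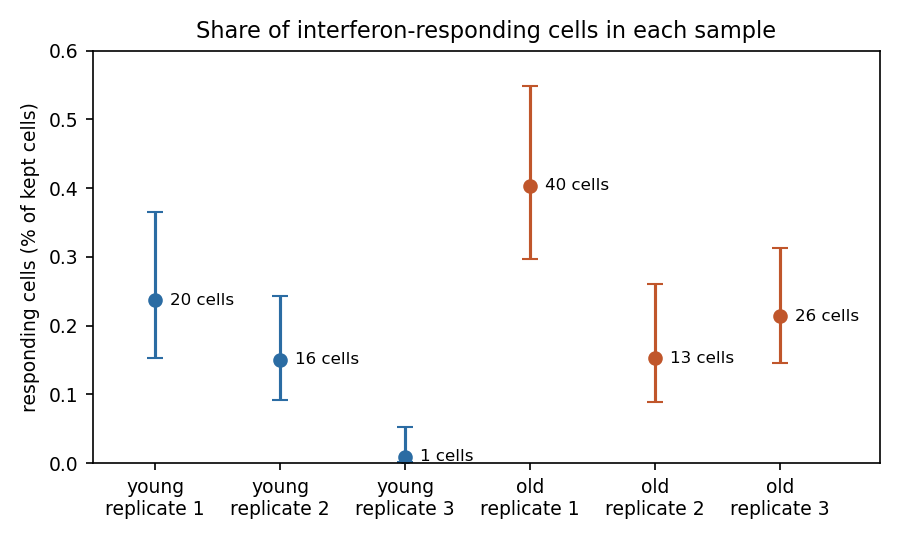
Points give the interferon-responding cells of each sample as a percentage of its kept cells (y axis), with 95% Wilson intervals as bars and the number of responding cells beside each point; blue is young and orange is old. The share runs from 0.0094% in young replicate 3 to 0.404% in old replicate 1, and the age groups overlap.

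The rule itself was met mainly through Isg15 and Ifit1. Isg15 was found in 113 of the 116 cells, Ifit1 in 110, Rsad2 in 79, Oasl2 in 53, Ifit3 in 51 and Usp18 in 18. The most frequent combination was Ifit1 with Isg15 and Rsad2 alone (31 cells). Just inside the threshold were 60 cells with 3 of the genes, 39 cells had 4, 14 had 5 and 3 had all 6, while 163 cells lay just outside with 2. These values chose the cells and are a description. Ifit3 has a close relative, Ifit3b, whose reads can be hard to separate from its own.

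As a description of the rule genes, which chose the cells, the responding cells held 0.529% or less of all UMIs in any sample, and 74.0% of the 1259 Ifit1 UMIs over all samples. By sample, they held 75.5%, 80.5% and 12.5% of the Ifit1 UMIs in young replicates 1 to 3, and 70.8%, 93.6% and 68.9% in old replicates 1 to 3. Young replicate 3, with its single responding cell and 8 Ifit1 UMIs in all, was the exception.

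Rsad2 behaved differently in 2 populations. It was the only one of the 6 genes in 843 cells of young replicate 2 and 719 cells of old replicate 2, against 13 to 128 cells in each other sample. There the responding cells held 7.18% and 7.34% of the Rsad2 UMIs, against 57.1% in young replicate 1, 76.9% in old replicate 1 and 28.8% in old replicate 3. In young replicate 3, with 14 Rsad2 UMIs in all, the 1 responding cell held none. With Rsad2 left out and 3 of the other 5 genes required, 82 cells qualified: 18, 8 and 1 in young replicates 1 to 3 and 31, 7 and 17 in old replicates 1 to 3.

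Responding cells were deeper than the comparison cells, which the rule favours, since a deeper cell shows more genes. Their median was 17001 against 13876 UMIs in young replicate 1, 16742.5 against 13573 in old replicate 1 and 18114 against 13148 in old replicate 3. The median was also higher in young replicate 2 and old replicate 2, and lower in the single cell of young replicate 3. Results below are therefore also given against 116 comparison cells of the same samples, each chosen to have nearly the same UMI total as 1 responding cell. Barcodes under 1000 UMIs held no UMI of the 6 genes in any library. They carried only 47428 to 135778 UMIs per library, and at the level of kept cells (0.986 to 9.54 CPM of the 6 genes together, in UMIs per 1000000) this depth is too low to measure free RNA of these genes. Of 417 barcodes shared by at least 2 libraries, 1 belonged to a responding cell, and its counterpart in the other library was not responding.

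Other genes were compared with edgeR's quasi-likelihood test on UMIs summed over the responding cells and over the comparison cells of each sample, with the sample as a block. The fit used the 3 samples with 20 or more responding cells, young replicate 1 and old replicates 1 and 3, and left the 6 rule genes out. At a Benjamini-Hochberg adjusted p under 0.05, 121 of 13594 genes were higher in responding cells (0.89%) and 52 were lower (0.383%). A second fit with the 5 samples that had 10 or more responding cells, added after the counts were seen, called 119 higher (0.846%) and 98 lower (0.696%) of 14071 genes. The filter on low counts could be met through the responding cells alone, so a gene near 0 in comparison cells entered the first fit only if it was high in responding cells. On the sums of comparison cells alone 13260 genes met the filter, of which 102 were called higher (0.769%). The median log2 fold change over all genes was -0.07 in the first fit. Without old replicate 1, which gave the most cells, 55 genes were higher and 27 lower, and without old replicate 3 the lower genes were 33.

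The precision of these fits is limited in a known way. With 3 samples, edgeR gave the spread shared by all genes unlimited weight for 97.5% of genes, so very small p-values rest on that shared spread rather than on 3 values of the gene itself. Against depth-matched cells, 30 genes were higher (0.461%) and 2 lower (0.0308%) of the 6504 that had enough counts. Genes with no UMI, or only a few, in the depth-matched cells passed that filter only through the responding cells.

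Transcripts of the interferons themselves were nearly undetected. Of 10 ligand genes, Ifnb1, the first type I interferon made by most cells, had 2 UMIs in all 60325 cells, 1 of them in a responding cell. Ifng, the type II interferon, had 4 UMIs and none in responding cells. Ifna1, Ifna4, Ifna5, Ifnl2 and Ifnl3 had none anywhere, and Ifna2 had 1. Ifne and Ifnk, type I interferons of epithelia, had 14 and 11 UMIs, of which 0 and 2 lay in responding cells, both in 1 cell of old replicate 1. A responding set of 116 cells with no UMI still allows a share of cells with a UMI of up to 2.59%. This 95% bound covers counting error only and treats the cells of all samples as 1 set.

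Of the 6 interferon receptor genes, none was called in either direction, and their median log2 fold change was -0.16. Ifnar1 had a UMI in 22 responding cells and 25 depth-matched cells. Its level in responding cells was 15.4, 5.09 and 0 CPM in young replicates 1 to 3 and 15.1, 11.3 and 0 in old replicates 1 to 3, against 10.4 to 14.8 in comparison cells. Its log2 fold change was -0.26 ± 0.36 (SE, n = 3 samples, edgeR adjusted p = 0.869). Ifnar2 was found in 33 and 43 cells, and its log2 fold change was -0.16 ± 0.30 (SE, edgeR adjusted p = 0.917).

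Of 10 tested genes that sense foreign nucleic acid or relay its detection, 4 rose and none fell, beside 0.89% of all genes called higher: Ifih1 (MDA5) and Ddx58 (RIG-I), which detect double-stranded RNA, their regulator Dhx58 (LGP2), and Zbp1, which binds Z-form nucleic acid. Zbp1 passed the count filter only through the responding cells. The median log2 fold change of the list was 0.98. Of the 9 that met the count filter on comparison cells alone, 3 were called, beside 0.769% of all such genes. Against depth-matched cells 3 of the 10 genes were tested, and Ifih1 and Ddx58 were called, beside 0.461% of all genes called higher. Ifih1 had few UMIs in the depth-matched cells, and Ddx58 had a low level there (log2 fold change 2.83). Both met that filter through the responding cells, so these 2 calls are a description.

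Ifih1 stood highest among them. Responding cells had 58.8, 53.5 and 0 CPM in young replicates 1 to 3 and 66.6, 33.8 and 33.2 CPM in old replicates 1 to 3, while comparison cells had 0.19 to 0.83 CPM in every sample. These summed levels of the 2 kinds of cell did not overlap outside young replicate 3, whose 1 cell had no Ifih1 UMI. Single cells did overlap: of 692 cells with an Ifih1 UMI, 65 were responding and 544 had none of the 6 genes. The log2 fold change was 7.04 ± 0.38 (SE, edgeR adjusted p = 1.78e-71). A UMI was present in 65 responding cells and in 2 depth-matched cells. In all the data only 4 cells had 5 or more Ifih1 UMIs, and all 4 were responding cells.

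Ddx58 had a wider basal expression. Its level was 25.6 against 3.73 CPM in young replicate 1, 26.4 against 5.51 in old replicate 1 and 11.7 against 1.42 in old replicate 3, and it was higher in responding cells of 5 of 5 samples with 10 or more such cells. The log2 fold change was 2.54 ± 0.39 (SE, edgeR adjusted p = 5.02e-08). The DNA sensor Cgas, the adaptors Mavs and Tmem173 (STING) and the inflammasome sensor Aim2 were not called, with log2 fold changes of -0.31, -0.19, 0.25 and -0.25. The RNA sensors Tlr3 (1.19, edgeR adjusted p = 0.618) and Eif2ak2, the kinase PKR (0.77, edgeR adjusted p = 0.198), were not called either.

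Among signalling and transcription factor genes, Stat2 and its partner Irf9 were higher in responding cells. Stat2 was at 10.2, 7.64 and 0 CPM in responding cells of young and 20.1, 19.7 and 25.4 CPM of old replicates 1 to 3, against 2.10 to 3.47 CPM in comparison cells. Outside the single cell of young replicate 3 these summed levels did not overlap between the kinds of cell. Stat2 rose by 2.72 ± 0.42 on the log2 scale and Irf9 by 2.18 ± 0.53 (SE, edgeR adjusted p = 2.65e-08 and 0.00478). A Stat2 UMI was present in 29 responding and 5 depth-matched cells, and against depth-matched cells Stat2 had a log2 fold change of 1.63 and was not called (edgeR adjusted p = 0.414).

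Irf7, the factor that amplifies interferon output and is itself induced, rose by 5.82 ± 0.48 (SE, edgeR adjusted p = 1.43e-30), and Irf1 rose by 1.56 ± 0.38 (SE, edgeR adjusted p = 0.00442). Irf7 was present in 17 responding cells, none of them in young replicates 2 and 3, and in 1 depth-matched cell. Irf7, Irf9 and Irf1 were not tested against depth-matched cells. Irf7 was called in 14 of 15 fits, Irf9 in 9 of 15 and Irf1 in 10 of 16. Irf3, the factor that is present before infection, had a log2 fold change of -0.10 ± 0.28 (SE, edgeR adjusted p = 0.951) and was found in 37 and 43 cells. The kinases Jak1, Jak2 and Tyk2 were not called, nor were the feedback inhibitors Socs1 and Socs3.

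**Figure D2:**
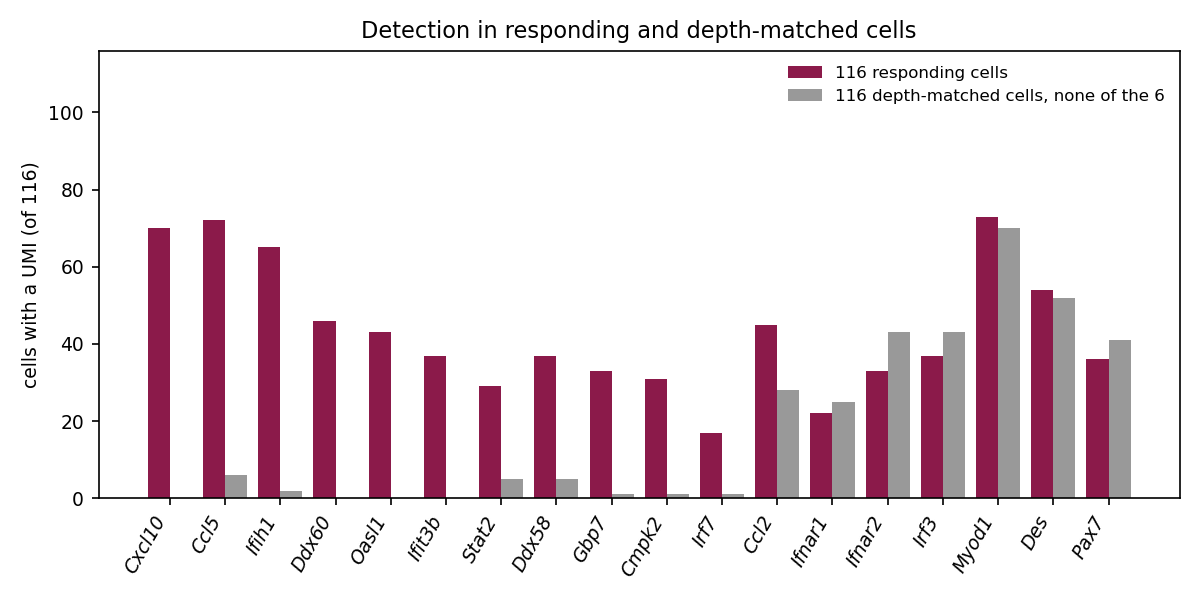
Bars give the number of cells with a UMI of each gene (y axis, of 116) among responding cells (dark red) and among depth-matched cells with none of the 6 genes (grey). Cxcl10, Ddx60, Oasl1 and Ifit3b were found in no depth-matched cell, while receptors, Irf3 and the myogenic genes Myod1, Des and Pax7 were found in similar numbers of both.

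The antiviral effectors formed the largest group. Of 55 such genes on the shared gene list, 44 had enough counts for the test, 27 rose and none fell, beside 0.89% of all genes called higher (median log2 fold change of the 44, 1.49). Of the 38 that met the count filter on comparison cells alone, 21 were called, beside 0.769% of all such genes. Cmpk2, Ddx60, Ifi44, Ifit3b, Oasl1 and Uba7 entered only through the responding cells. Against depth-matched cells 22 were tested and 9 were called, beside 0.461% of all genes. Members with no UMI, or only a few, in the matched cells entered there only where responding cells held them. DESeq2 called 20 of the 44 and no gene lower, at a background of 0.5% of genes called higher. Of the 27 genes, 16 were higher in responding cells of all 5 samples with 10 or more such cells.

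The strongest members were near 0 in comparison cells. Ifit3b was at 51.2, 20.4 and 0 CPM in responding cells of young replicates 1 to 3 and at 28.9, 31.0 and 3.91 CPM in old replicates 1 to 3, against at most 0.03 CPM in comparison cells, and its log2 fold change was 10.3 ± 0.49 (SE). It had 17 UMIs in all comparison cells and entered the test through the responding cells, so this difference is a description. Part of this may be shared reads, since Ifit3b lies beside the rule gene Ifit3 on chromosome 19 and resembles it. Oasl1, an oligoadenylate synthetase-like gene that lies next to the rule gene Oasl2 on chromosome 5, was at 7.67, 38.2 and 0 CPM in young and 80.4, 53.6 and 54.7 CPM in old replicates 1 to 3, against 0.01 to 0.37 CPM.

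The log2 fold change of Oasl1 was 8.38 ± 0.43 (SE), a description like that of Ifit3b, since it also entered the test through the responding cells. Oasl1 was at 0 in the single cell of young replicate 3, lowest in young replicate 1 among the other 5 samples and highest in old replicate 1. Ddx60, a helicase that assists RNA sensing, was at 12.8, 68.7 and 0 CPM in young and 40.2, 36.7 and 27.3 CPM in old replicates 1 to 3, against 0.03 to 0.20 CPM. Its log2 fold change was 8.07 ± 0.44 (SE), with the same limit, and Ddx60 and Oasl1 were each found in no depth-matched cell.

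Xaf1 (log2 fold change 3.98) and Parp14 (3.16) also rose. Ifi44 (8.95), with 36 UMIs in all comparison cells, and Cmpk2 (7.03), a mitochondrial nucleotide kinase encoded beside Rsad2, are given as a description, since they too entered through the responding cells. Ifi44 had an edgeR adjusted p of 0.0684 with 5 samples, so its call rested on the choice of samples. Ifitm3, a membrane protein that blocks viral entry, differed from these in being abundant everywhere. It was at 2972, 805 and 533 CPM in responding cells of young and 2534, 1350 and 1732 CPM of old replicates 1 to 3, against 1819, 551 and 647 CPM in young and 1295, 957 and 807 CPM in old comparison cells. Ifitm3 rose by 0.89 ± 0.07 (SE, edgeR adjusted p = 3.07e-38), and of the 6 samples young replicate 3 alone had the lower level in its responding cell.

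Bst2 (tetherin) had a log2 fold change of 2.50 ± 0.59 and was not called (SE, edgeR adjusted p = 0.535), although DESeq2 gave an adjusted p of 0.00346. Mx1, Mx2 and Oas1b were not analysed here. At least 1 UMI of Ifih1, Oasl1, Ddx60, Ifit3b, Cmpk2, Irf7 or Gbp7, chosen after their values were seen, was present in 105 of the 116 responding cells and in 5 depth-matched cells.

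**Figure D3:**
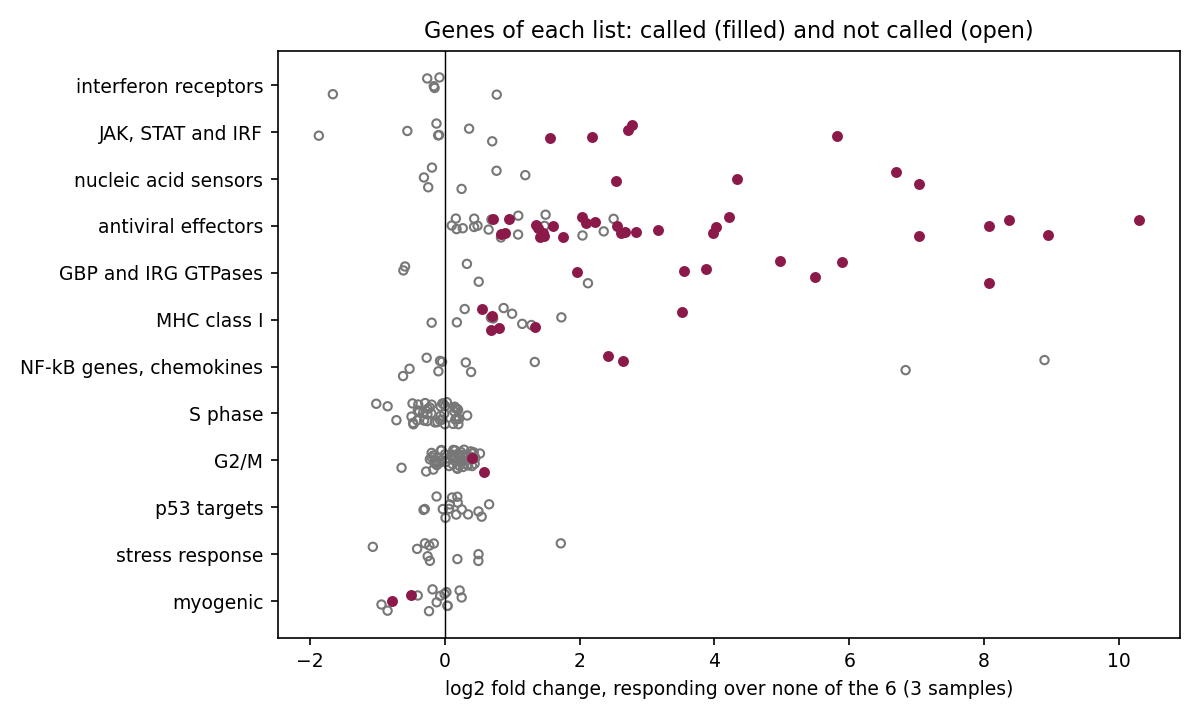
Each point is 1 tested gene of a list (rows), placed by its log2 fold change of responding over comparison cells in the 3-sample fit (x axis); filled points passed the edgeR test at an adjusted p of 0.05 and open points did not. All 44 antiviral effectors lie above 0, the cell cycle, p53 and stress lists lie around 0, and the open points at 6.84 and 8.90 are Ccl5 and Cxcl10.

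Interferon-inducible GTPases, which attack membranes around intracellular pathogens, followed the effectors. In a list of 16 genes that also holds Ciita, Cd274 and Ido1, 12 were tested, 7 rose and none fell, beside 0.89% of all genes called higher, with a median log2 fold change of 2.84. Of the 10 that met the count filter on comparison cells alone, 6 were called, beside 0.769% of all such genes. Against depth-matched cells Irgm1 alone had enough counts, and it was not called (log2 fold change 1.24, edgeR adjusted p = 0.162). Gbp7 was at 15.4, 7.64 and 0 CPM in responding cells of young and 30.1, 22.6 and 5.86 CPM of old replicates 1 to 3, against 0.02 to 0.63 CPM, and rose by 5.89 ± 0.49 (SE, edgeR adjusted p = 4.07e-30). Gbp2 (4.97) and Gbp3 (5.49), its neighbours on chromosome 3, and Iigp1 (8.08), Igtp (3.87), Irgm2 (3.55) and Irgm1 (1.96) were the others that rose, where Iigp1, with 31 UMIs in all comparison cells, entered the test only through the responding cells. Gbp2, Gbp3, Irgm2 and Iigp1 had no UMI in the responding cells of old replicate 3, and Irgm2 had 5 UMIs in all responding cells. Igtp and Irgm2 overlap on chromosome 11, so their reads may be shared.

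Of 16 tested genes of antigen presentation by MHC class I, 6 rose and none fell, beside 0.89% of all genes called higher. The median log2 fold change was 0.76. DESeq2 called 3 of the 16, beside 0.5% of all genes called higher. Against depth-matched cells 1 of 7 was called, beside 0.461% of all genes. Psmb8, the immunoproteasome subunit, rose by 3.52 ± 0.50 (SE, edgeR adjusted p = 1.09e-09), and the peptide-loading protein Tapbp by 1.33 ± 0.23 (SE, edgeR adjusted p = 2.41e-06). Psmb8 was higher in responding cells of 2 of the 3 samples of the fit and was not tested against depth-matched cells. The DESeq2 adjusted p of Tapbp was 0.0719. The heavy chain genes H2-D1 and H2-K1 rose by 0.70 and 0.68. Against depth-matched cells H2-D1 had a log2 fold change of 0.84 (edgeR adjusted p = 0.0818). H2-K1 had a log2 fold change of -0.17 without old replicate 1 (edgeR adjusted p = 0.956), so its rise rested on that sample. The light chain B2m had a log2 fold change of 0.29 ± 0.10 and was not called (SE, edgeR adjusted p = 0.122).

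Cxcl10 and Ccl5 are chemokines that recruit activated T cells. Cxcl10 was at 742, 166 and 0 CPM in responding cells of young replicates 1 to 3 and at 624, 409 and 266 CPM in old replicates 1 to 3. Comparison cells had 0.22 to 0.52 CPM, except 3.27 CPM in old replicate 1. In each of the 5 samples with 10 or more responding cells, the summed level of the responding cells lay above every comparison value.

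A UMI of Cxcl10 was present in 70 responding cells and in no depth-matched cell. After thinning every cell to 5000 UMIs, the share with Cxcl10 was 48.3% of the 116 responding cells and 0.205% of the 57491 comparison cells. The responding cells held 74.4%, 36.5% and 0% of all Cxcl10 UMIs of young replicates 1 to 3 and 38.0%, 60.7% and 53.8% of old replicates 1 to 3. Conversely, 100 cells had 5 or more Cxcl10 UMIs, of which 50 were responding and 19 had none of the 6 genes.

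Ccl5 was at 1392, 239 and 0 CPM in responding cells of young and 1602, 482 and 826 CPM of old replicates 1 to 3, against 7.31, 5.88 and 1.64 CPM in young and 29.5, 4.05 and 4.64 CPM in old comparison cells. It was found in 72 responding and 6 depth-matched cells. Ccl5 was less restricted than Cxcl10: the responding cells held 27.1%, 4.12% and 0% of its UMIs in young and 13.4%, 15% and 20.5% in old replicates 1 to 3. Of 599 cells with 5 or more Ccl5 UMIs, 55 were responding and 354 had none of the 6 genes.

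The tests of these chemokines depended on how the spread was estimated. The log2 fold change of Cxcl10 was 8.90 ± 1.15 and that of Ccl5 6.84 ± 0.73 in the 3-sample fit, where neither was called (SE, edgeR adjusted p = 0.374 and 0.318). Both were called with 5 samples (edgeR adjusted p = 0.0136 for each) and by DESeq2 (adjusted p = 5.62e-23 and 1.0e-33). Over 17 fits, Cxcl10 was called in 9 and Ccl5 in 7. Both were also called without old replicate 1, where comparison cells had their highest level, and when the spread was not estimated robustly, an alternative added after the data were seen. Against depth-matched cells, which held no Cxcl10 UMI, the test of Cxcl10 adds nothing to the counts of cells. Ccl5, with a log2 fold change of 5.91 there, was not called (edgeR adjusted p = 0.346).

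Cell by cell, the 2 chemokines were uneven. Both were found in 51 responding cells, Cxcl10 alone in 19, Ccl5 alone in 21 and neither in 25. The 5 cells richest in each gene carried 31.9% of the Cxcl10 and 33.7% of the Ccl5 UMIs of all responding cells. The highest values were 94 Cxcl10 UMIs in a cell of old replicate 2 and 269 Ccl5 UMIs in a cell of old replicate 1.

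**Figure D4:**
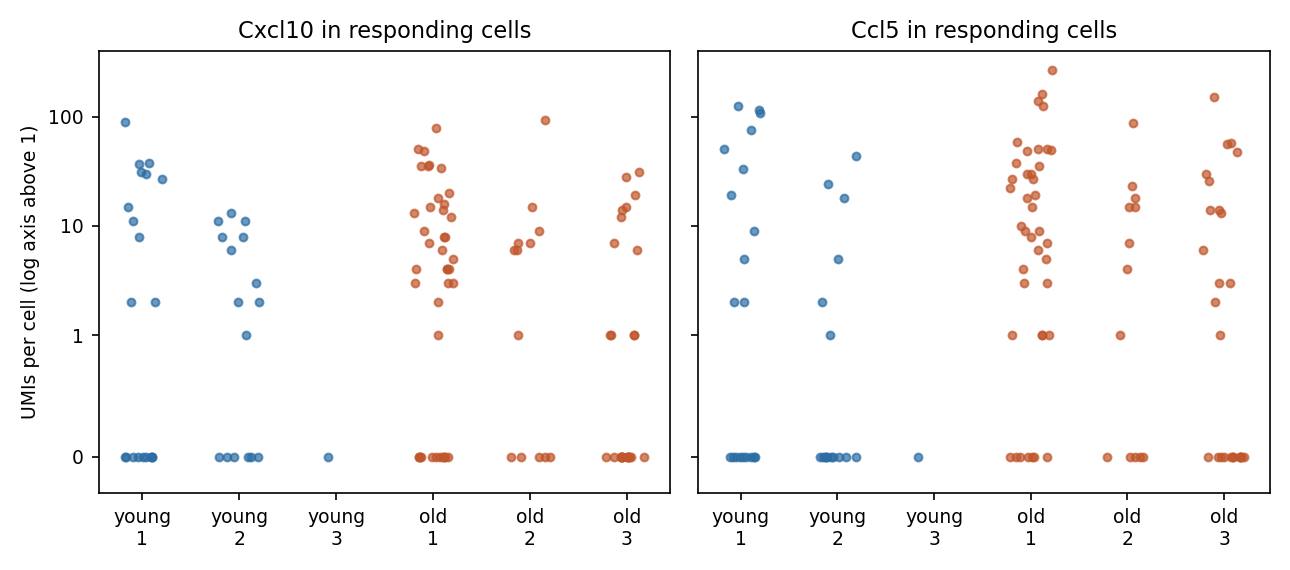
Each point is 1 responding cell, placed by its UMIs of Cxcl10 (left) or Ccl5 (right) on an axis that is linear up to 1 and logarithmic above, for each sample (x axis; blue young, orange old). In each sample other than young replicate 3, cells without a UMI stand beside cells with 10 or more, up to 94 UMIs of Cxcl10 and 269 of Ccl5.

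Other genes of the NF-κB and chemokine list changed in part. Of 13 tested, 2 rose in the 3-sample fit and none fell, beside 0.89% of all genes called higher (median log2 fold change 0.31). They were the monocyte attractants Ccl2, at 2.41 ± 0.14, and Ccl7, at 2.64 ± 0.24 (SE, edgeR adjusted p = 2.01e-65 and 3.82e-26), which are neighbours on chromosome 11. Ccl2 was at 289 against 41.5 CPM in young replicate 1, 241 against 50.8 in old replicate 1 and 68.4 against 14.1 in old replicate 3. Ccl2 was also common outside: the responding cells held 2.42% or less of its UMIs in any sample. Against depth-matched cells Ccl2 had a log2 fold change of 2.09 and was not called (edgeR adjusted p = 0.781). The NF-κB inhibitor Nfkbia, itself an NF-κB target, had a log2 fold change of 0.39 ± 0.18 and was not called (SE, edgeR adjusted p = 0.488), and Cxcl11 was not analysed here.

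**Figure D5:**
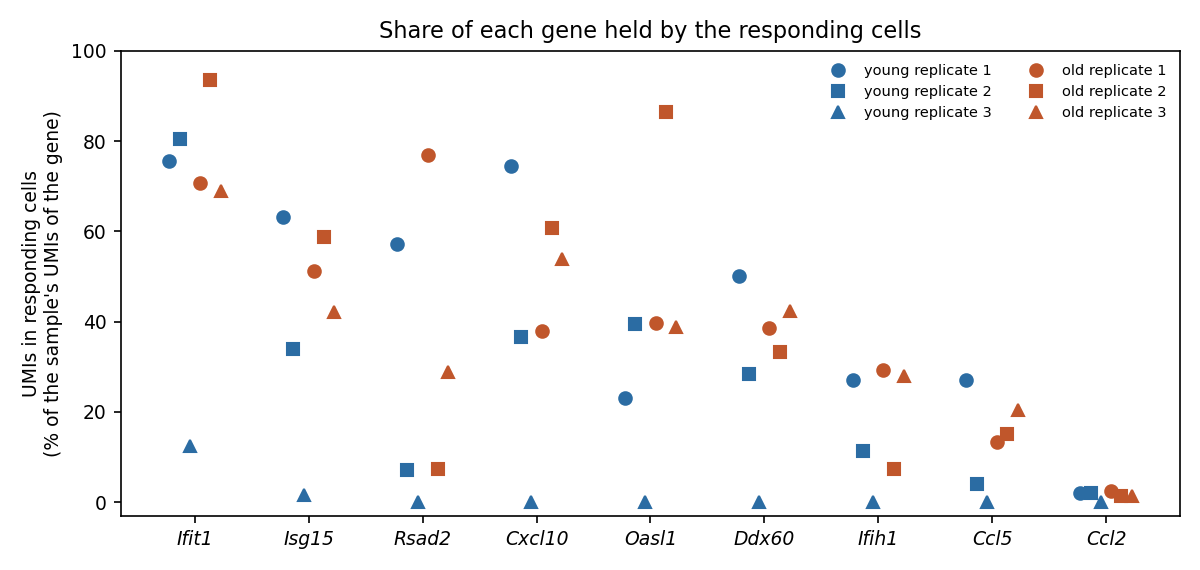
Points give, for each sample (blue young, orange old, symbol by replicate), the UMIs of a gene that lay in responding cells as a percentage of the sample's UMIs of that gene (y axis). Ifit1 lies between 68.9% and 93.6% outside young replicate 3, Cxcl10 between 36.5% and 74.4%, and Ccl2 at 2.42% or below.

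Part of the Cxcl10 level of a whole culture thus lay in few cells. Cxcl10 over all kept cells was 2.94 CPM in young replicate 1 and 0.755 CPM when its 20 responding cells were left out. In old replicate 1 it was 8.69 CPM and 5.42 CPM without the 40 responding cells.

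Outside the lists, the 12 genes with the largest rises that met the naming rule were led by other interferon-inducible families. Apol9a rose by 6.37 ± 0.43 and its near copy Apol9b by 4.41 ± 0.38 (SE, edgeR adjusted p = 2.51e-45 and 2.4e-20), and reads of these copies may be split between them. Ifi204 (2.40), Ifi207 (1.89) and Ifi211 (1.74) belong to the p200 family of DNA-binding proteins and lie side by side on chromosome 1. With 5 samples Ifi204 had an edgeR adjusted p of 0.346 and Apol9b of 0.218. The log2 fold change of Ifi204 was 0.15 with cells thinned to 5000 UMIs, in samples with 10 or more such cells (edgeR adjusted p = 0.988), and it was called in 13 of 17 fits. The other 7 were Loxl3 (1.62), Bmp2 (1.48), Ptprj (1.47), Casp12 (1.44), Cx3cl1 (1.35), Ptpn22 (1.30) and Anks1b (1.19), which include a bone morphogenetic protein, a membrane-bound chemokine and phosphatases. Casp12 had an edgeR adjusted p of 0.131 with 5 samples. None of these 7 was called against depth-matched cells, where Bmp2, Ptprj and Casp12 were not tested and the edgeR adjusted p was 0.422 for Loxl3, 0.221 for Cx3cl1, 0.0644 for Ptpn22 and 0.517 for Anks1b. The DESeq2 adjusted p was 0.0738 for Casp12, 0.0984 for Bmp2 and 0.118 for Anks1b.

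Promoters of the genes that rose held the GAAANNGAAA motif more often than promoters at large, as a description. It was found for 25 of 92 genes called higher that have a RefSeq window (27.2%), for none of 36 called lower, and for 3.49% of the 10678 tested genes with a window. Of the GTPase list 81.8% held it, of the antiviral effectors 39.6% and of the rule genes 80% (4 of 5). Apol9a, Apol9b, Ddx60, Gbp7 and Ifit3b held it upstream of the start site. In Ifih1 it lay 33 bases after the start site.

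Lower genes were less firmly measured. Those named by the rule included Trdn, Dlg2, Tubb3, Hbegf, Tnnc2, Tmeff2, Dock5, Ccn2, Cacnb2, Pcolce2 and Rab3gap2, with log2 fold changes from -1.59 to -1.06. Hbegf, a growth factor that binds the EGF receptor, fell by 1.37 ± 0.21 on the log2 scale (SE, edgeR adjusted p = 6.38e-08) and was also called against depth-matched cells (edgeR adjusted p = 0.00688). It was at 53.7 against 83.1 CPM in young replicate 1, 27.6 against 101 in old replicate 1 and 7.81 against 17.1 in old replicate 3. Of the other genes, Dlg2 had a depth-matched log2 fold change of -0.15, Cacnb2 of -0.43, Tnnc2 of -0.70, Tmeff2 of -0.75, Dock5 of -1.16, Pcolce2 of -1.04 and Rab3gap2 of -1.37. None of these was called there, and Trdn and Tubb3 were not tested there. With 5 samples the edgeR adjusted p was 0.149 for Tubb3, 0.282 for Tnnc2 and 0.115 for Rab3gap2. DESeq2 called none of the lower genes named in this paragraph, with the lowest adjusted p (0.0536) for Hbegf.

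Ccn2, which responds to TGF-β and mechanical tension in many cells, had a log2 fold change of -1.14 (edgeR adjusted p = 0.00553) and was not called by DESeq2, nor against depth-matched cells, where its log2 fold change was -1.57. Of the 15 myogenic genes, Ttn and Tnnt2 were lower (log2 fold change -0.78 and -0.51), beside 0.383% of all genes called lower. None of the 15 was higher. Tnnt2 was not called with 5 samples (edgeR adjusted p = 0.457). DESeq2 called Ttn (DESeq2 adjusted p = 0.0221) and not Tnnt2 (DESeq2 adjusted p = 0.156), where it called 5 of all 13594 genes lower. Against depth-matched cells Ttn had a log2 fold change of 0.10, and 2 other myogenic genes were called higher, beside 0.461% of all genes. The list's median was -0.12 in the main comparison and 0.28 against depth-matched cells.

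Myogenic genes were found in the responding cells about as often as in depth-matched cells. Myod1, the myogenic determination factor, was found in 73 responding and 70 depth-matched cells, Des (desmin) in 54 and 52, Pax7, the satellite cell factor, in 36 and 41, and Myf5 in 30 and 27. The summed level of the 15 myogenic genes was 263, 2584 and 133 CPM in responding cells of young and 529, 1618 and 6912 CPM of old replicates 1 to 3. In comparison cells it was 848, 3944 and 380 CPM in young and 516, 2796 and 8158 CPM in old replicates, so the responding cells were lower in 5 of 6 samples and the cultures differed widely. In depth-matched cells it was 207, 2313 and 267 CPM in young and 539, 1934 and 5291 CPM in old replicates.

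Several defining markers of immune cells were at 0. Of 9 macrophage markers, 5 had no UMI in responding cells (Ptprc, Adgre1, Tyrobp, C1qa and Itgam), and the other 4 had 15 UMIs in 12 cells. The summed macrophage level was 0 to 13.8 CPM in responding and 2.43 to 9.01 CPM in comparison cells. Old replicate 1 alone had the higher level in responding cells (13.8 against 7.21 CPM), where 8 of its 40 cells had such a UMI, 8 of the 11 UMIs being of Cd68. Its part in the results was not tested. All 6 lymphocyte markers were at 0, of 4 neutrophil markers 1 had a single UMI, and Siglech, which defines plasmacytoid dendritic cells, was at 0, while the other 4 markers of that list had 410 UMIs. Of these, 407 were of Tcf4, which was not called (log2 fold change 0.01, edgeR adjusted p = 0.994). The 6 fibro-adipogenic markers had 690 UMIs with Pdgfra and Lum at 0, and 500 of them were of Gsn (log2 fold change 0.08) and 135 of Col3a1 (-0.09), neither of which was called. The 4 smooth muscle and pericyte markers had 36 UMIs, the 5 endothelial markers 6 and the 3 glial markers 2.

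Cell cycle lists moved little. The summed level of 54 G2/M genes was higher in the responding cells of 6 of 6 samples, with a mean log2 ratio of 0.35 ± 0.29 (SD, n = 6, exact sign-flip permutation p = 0.031, the smallest that 6 samples allow). Without young replicate 3 and its single cell, the mean was 0.24 (exact sign-flip permutation p = 0.0625, the smallest that 5 samples allow). Against depth-matched cells it was 0.18 ± 0.33 (exact sign-flip permutation p = 0.219). Of the 54 genes, Ube2c and Cenpa rose, by 0.58 and 0.40, beside 0.89% of all genes called higher. The list's median was 0.15. DESeq2 called 1 of the 54, beside 0.5% of all genes called higher. Against depth-matched cells 0 of 53 were called, beside 0.461% of all genes.

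The 43 S-phase genes included no called gene, and their summed level had a mean log2 ratio of -0.19 ± 0.32 (SD, n = 6, exact sign-flip permutation p = 0.156). The single cell of young replicate 3 had -0.81, and the mean without it was -0.07. Against depth-matched cells it was -0.37 ± 0.26, lower in 6 of 6 samples (exact sign-flip permutation p = 0.031). For young replicate 3 this set 1 responding cell (1547 CPM) against 1 matched cell (2555 CPM). Without that sample, the exact sign-flip permutation p cannot go below 0.0625. Of 16 p53 targets, 6 inhibitors of cyclin-dependent kinases and 11 stress response genes, none was called in either direction at the backgrounds of 0.89% and 0.383%. Cdkn1a had a log2 fold change of -0.30 ± 0.46 (SE, edgeR adjusted p = 0.915).

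RNA quality measures were close. Thinned to 5000 UMIs, the median number of genes differed by -34.6 ± 60.1 per cell (SD, n = 6, exact sign-flip permutation p = 0.219). The cell of young replicate 3 had -139, and the mean without it was -13.7. The difference was -48.5 ± 23.2 against depth-matched cells (exact sign-flip permutation p = 0.031, lower in 6 of 6). Here too young replicate 3 gave 1 cell against 1 matched cell (1953 against 1988 genes). Without it the exact sign-flip permutation p cannot go below 0.0625. The median mitochondrial share was lower in responding cells of 5 of 6 samples, by 0.02 to 0.46 percentage points, and 2.71 points higher in the 1 cell of young replicate 3. Against depth-matched cells it was higher in 5 of 6 samples, by a mean of 0.538 points ± 1.06 (SD, n = 6, exact sign-flip permutation p = 0.156).

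Cells with more of the rule genes had a similar depth and similar chemokine detection, and some other interferon-induced genes were found in more of them. The median UMI total was 18221 in the 60 cells with 3 genes and 18564 in the 56 cells with 4 or more. Cxcl10 was found in 58.3% and 62.5% of them and Ccl5 in 63.3% and 60.7%. Cxcl10 UMIs numbered 408 and 725, and Ccl5 UMIs went the other way, at 1432 and 1076. Irf7 was found in 3.33% and 26.8%, Ifi44 in 1.67% and 19.6%, Parp14 in 1.67% and 23.2% and Ddx58 in 21.7% and 42.9%. Oasl1 was found in 36.7% and 37.5%. The genes of this paragraph were chosen after their values were seen, and the differences were not tested.

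The response itself was compared between ages by an interaction term, old over young. With 1 young and 2 old samples, 11 of 14511 genes were called (0.0758%), where age and that 1 young population cannot be told apart, and with 2 young and 3 old samples 5 were called. DESeq2 called 1 gene with the 3 samples and 0 with the 5, with 84 and 189 genes at an unadjusted p under 0.05. Cxcl10 in responding cells spanned 166 to 742 CPM in the young samples with 10 or more such cells and 266 to 624 CPM in the old ones, so the ages overlapped. The same held for Ccl5 (239 to 1392 CPM young, 482 to 1602 CPM old) and Ifih1 (53.5 to 58.8 CPM young, 33.2 to 66.6 CPM old).

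Within the responding cells, old and young could be compared only with 5 samples, since 3 left no residual degrees of freedom. The edgeR fit, with the gene list as a covariate, called 1 of 5402 genes (0.0185%), Arhgdib, lower in old. This gene was named after its value was seen, and the count depended on each sample: leaving out young replicate 1 gave 42 and young replicate 2 gave 0, while leaving out old replicates 1 to 3 gave 31, 4 and 0. In the cells with none of the 6 genes, 1 of 14974 genes was called (0.00668%), Cyba, also named after its value was seen, and it was higher in old. DESeq2 called 227 genes there, and edgeR called 0 when young or old replicate 1 was left out and 3 when young replicate 3 was. No gene of the interferon lists was called by edgeR in either comparison. The DESeq2 calls in cells with none of the 6 genes included 1 of 9 nucleic acid sensors, 1 of 45 antiviral effectors and 2 of 17 MHC class I genes, all higher in old, where DESeq2 called 1.26% of all genes higher.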

How the data were processed

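Droplet libraries (10x 3′ chemistry) of 3 young and 3 old cultures were deposited by the authors as UMI counts per gene and barcode. Per the file headers, replicate 1 of each group was made with another Cell Ranger version and a shorter gene list than the other 4 samples, and the submitters' processing notes name Cell Ranger 7.2.0 and mm10. Genes on both lists were used. Samples held 132853155 to 195857239 UMIs in kept cells. Cells were kept at 5000 UMIs or more and under 15% mitochondrial UMIs, with no doublet caller. Dropping the deepest 10% of cells was an alternative.

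The members and lists were chosen with earlier results of these data known. UMIs were summed per sample and cell kind and tested with edgeR 4.0.16 (TMM scaling, filterByExpr, robust quasi-likelihood) in R 4.3.3, with Benjamini-Hochberg adjustment at 0.05, and with DESeq2 1.42.0 as an alternative. The main fit needed 20 responding cells per sample. The SE printed with an edgeR log2 fold change is its absolute value divided by the square root of the quasi-likelihood F. Shares and summed levels were compared by exact tests over samples (scipy 1.17.1). CPM is per 1000000 UMIs of the summed cells. Fitting was checked on simulated counts. Genes outside the lists were named if called, with a mean of 10 CPM or more and the same direction in the 3 samples of the main fit. Up to 12 per direction were taken by fold. In other samples some went the other way, as Ifi211 in young replicate 2 (15.3 against 16.5 CPM in comparison cells). Ccn2 in old replicate 2 was at 5.64 against 2.35 CPM. Some genes are not reported here. The planned comparison of old with young responding cells in 3 samples could not be fitted, so 5 samples were used.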

Additional observations from a re-analysis of the deposited data

Results flagged for a closer look

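For 4 genes the interaction of cell kind with age passed the test in a fit that held 1 young and 2 old samples. Age and the single young population, replicate 1, cannot be told apart in that fit. Myl4, an atrial and embryonic myosin light chain, had an edgeR adjusted p of 3.76e-08, and Actc1, cardiac actin, of 0.00058. In responding cells of young replicates 1 to 3 Actc1 had no UMI, and in old replicates 1 to 3 it had 0, 0 and 314. Myl4 had 0, 1 and 0 UMIs in young and 2, 3 and 291 in old replicates. Within old replicate 3 the responding and comparison cells were at 613 and 502 CPM of Actc1 and at 568 and 792 CPM of Myl4. The interaction sets these against 0 UMIs in the 20 responding cells of young replicate 1, whose comparison cells were at 29.9 CPM of Actc1 and 92.9 CPM of Myl4, so its size depends on how a count of 0 is treated. With 5 samples Myl4 had an edgeR adjusted p of 0.748 and Actc1 of 0.0035.

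Apol9b, an interferon-inducible apolipoprotein L gene, had a larger response in the 2 old samples than in young replicate 1 (log2 difference 3.06 ± 0.56, SE, edgeR adjusted p = 0.000181; 5 samples, edgeR adjusted p = 1.51e-07). Responding cells had 56.3, 20.4 and 0 CPM in young and 59.0, 39.5 and 7.81 CPM in old replicates 1 to 3, and these overlap. The comparison cells were at 8.29, 1.92 and 0.037 CPM in young and 1.01, 0.181 and 0.207 CPM in old replicates, so the young samples of the fits had the higher base level.

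Cxcl1, a neutrophil attractant, had a smaller response in the 2 old samples than in young replicate 1 (log2 difference -3.35 ± 0.65, SE, edgeR adjusted p = 0.000796), on 18, 0 and 0 UMIs in young and 12, 7 and 1 in old replicates 1 to 3. With 5 samples Cxcl1 had an edgeR adjusted p of 0.443. What underlies these 4 differences was not tested.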

How the results depend on the processing

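The old minus young share kept its direction in every setting run (leaving out 1 sample gave 0.0509 to 0.177 points; thinned to 5000 UMIs 0.0539; 4 or more of the 6 genes 0.0524). The tests could not reach 0.05 with so few samples. With replicate numbers as a block it was 0.124 points, with old above young in each of 3 pairs (exact sign-flip permutation p = 0.25, the smallest 3 pairs can give). Deviations of same-numbered young and old samples correlated at 0.384, 0.281 and -0.118, and those of differently numbered samples at -0.461 to 0.315. With 3 pairs, and a gene list shared by replicate 1 of both ages, this cannot decide whether the numbers pair the samples. With the replicate block, 3 genes were called between old and young responding cells and 1 in cells with none of the 6 genes.

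Higher genes (121) numbered 68 with DESeq2, 30 against depth-matched cells (47 with 5 samples), 61 without the deepest 10% of cells, 2 without the sample block, 16 with cells thinned to 5000 UMIs in samples with 10 or more such cells, and 55 to 97 without 1 sample. Lower genes (52) numbered 5, 2 (12 with 5 samples), 0 without the sample block, 98 with 5 samples, 92 with 5 samples and no robust spread, 6 with 5 samples in DESeq2, and 27 to 40 without 1 sample. The 11 interaction genes became 1 with DESeq2, 5 with 5 samples (0 depth-matched, 0 with DESeq2, 4 with cell kind by gene list) and 20 without robust spread. Depth-matched, 282 genes had an unadjusted p under 0.05 in edgeR. Old against young gave 227 (DESeq2), 0 (no gene list term, edgeR, 490 at an unadjusted p under 0.05) and 0 (longer list, 995) in cells with none of the 6 genes, and 0 to 3 without 1 sample. In responding cells it gave 52 (no filter), 123 (longer list) and 0 to 42 without 1 sample.

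Against depth-matched cells, the gene number difference was -48.5, the mitochondrial difference 0.538 points, the S-phase ratio -0.37 and the G2/M ratio 0.18. With 4 or more rule genes the gene number, S-phase and G2/M values were 26.7, 0.037 and 0.27, and the mitochondrial difference was -0.0474 points. Without 1 sample they ran from -46.9 to -13.7, -0.24 to -0.07 and 0.24 to 0.39, and the mitochondrial difference from -0.211 to 0.423. Of 977 values for 64 named genes, 682 kept direction and side of the threshold, 260 no longer passed, 27 newly passed and 8 changed sign: Irf3 (0.18 without the deepest cells, 0.27 without old replicate 1, 0.14 thinned, -0.49 to 0.27 without 1 sample), H2-K1 (-0.17 without old replicate 1, up to 0.96 without another), Ube2c (-0.026 thinned), Ttn (0.10 and 0.23 depth-matched, 3 and 5 samples) and Dlg2 (0.036 depth-matched, 5 samples). The cause was not tested. Settings not fitted for too few cells or degrees of freedom were the main fit at 4 or more rule genes or thinned at 20 cells, and the interaction without 1 sample, thinned, at 4 or more rule genes with 20 cells, without the deepest cells or with cell kind by gene list in 3 samples. The thinned comparison of old with young responding cells was not fitted either.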

Other observations

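Cells short of the rule also carried chemokine transcripts. Of 500 cells with a Cxcl10 UMI, 70 were responding and 340 had none of the 6 genes. Of 174 cells with an Oasl1 UMI, 43 were responding and 73 had none, and of 12 cells with 5 or more Oasl1 UMIs, 9 were responding and 2 had none.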
